A study of Mus musculus with 6 samples.

Results

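Fabp7, Fabp5, Fabp3, Crabp1 and Crabp2 encode small carrier proteins that bind fatty acids or retinoic acid inside the cell, and they are 5 of the 27998 genes counted in single cells of the embryonic mouse retina. They were taken as a named list across the cell types and genotypes of the study. Fabp7 was selected on its measured level, higher in ganglion cells of the Atoh7-null libraries than of the Bax null libraries, so the ganglion cell values below describe that choice and carry no test in the contrasts with Bax null. All 5 members were counted, and the filter on low counts kept 5 of 5 in ganglion cells and progenitors. It kept 4 of 5 in neurogenic cells, cones and horizontal cells, where Fabp3 fell below it.

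Fatty acid binding proteins take up long-chain fatty acids in the cytoplasm and pass them to membranes, enzymes and nuclear receptors. Fabp7, brain lipid binding protein, is best known from radial glia and neural progenitors, Fabp5 is the epidermal form found in many growing and neuronal cells, and Fabp3 is the heart form. Crabp1 and Crabp2 bind retinoic acid: Crabp2 delivers it to retinoic acid receptors in the nucleus, and Crabp1 holds it in the cytoplasm and is linked to its breakdown. In the embryonic eye, retinoic acid is made by retinaldehyde dehydrogenases in the retina and broken down by Cyp26 enzymes.

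The cells came from retinas at embryonic day 14 in 3 genotype groups of 2 libraries each. Bax null retinas lack Bax, the pore-forming protein that commits cells to apoptosis. Bax null Atoh7 null retinas lack Bax and also Atoh7, the proneural factor that most ganglion cells need. Bax het Atoh7 null retinas lack Atoh7 and carry a Bax heterozygous genotype. No group therefore has an intact Bax genotype. The Atoh7 contrast below takes the Bax null Atoh7 null level less that of Bax null, so the Bax genotype is the same on both sides. The combined contrast takes the Bax het Atoh7 null level less that of Bax null, and both genotypes differ. The Bax contrast takes Bax null Atoh7 null less the Bax het Atoh7 null level, where Atoh7 is missing on both sides. The Atoh7 and combined contrasts share the 2 Bax null libraries. The sources used here do not say how many animals or litters a library holds, so p-values measure the spread between libraries, which may be technical.

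The authors' table gives each of 67050 cells of these 6 libraries 1 of 5 cell types and 1 of 142 clusters. Ganglion cells numbered 667 to 1772 per library, neurogenic cells 1663 to 2739, progenitors 5456 to 9507, cones 257 to 799 and horizontal cells 285 to 595. The ganglion and cone labels carried their markers: the summed level of 13 ganglion markers was 9357 to 14897 counts per 1000000 UMIs (CPM; a UMI, or unique molecular identifier, marks 1 captured RNA molecule) in ganglion cells against at most 974 CPM in neurogenic cells, and that of 8 cone markers was 3399 to 4149 CPM in cones. The horizontal label held 1615 to 3005 CPM of 6 horizontal markers beside 2319 to 2949 CPM of the ganglion markers and 2599 to 3916 CPM of 6 amacrine markers, which share Tfap2a and Tfap2b with the horizontal list. The amacrine sum was above the horizontal sum in 5 of 6 libraries, so horizontal cells below means the authors' label. Libraries held 22463515 to 66594431 UMIs. The Bax null libraries stood apart from the other 4. Their median depth was 5660.5 and 6804 UMIs per cell against 1634 to 2632, mt-Atp6 was at 8740 and 9020 CPM against 3.74 to 4.55, and 5 of 5 blood markers were higher in every cell type. Every contrast with Bax null sets these libraries against the others, so genotype and library differences cannot be told apart there.

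Atoh7 had 0 UMIs in all 4 Atoh7-null libraries, which allows up to 3 UMIs in each, and 5.96 and 6.88 CPM in the Bax null libraries. Bax was at 144 and 108 CPM in the Bax het Atoh7 null libraries and at 17.1 and 15.0 CPM in the Bax null libraries. In the libraries labelled Bax null Atoh7 null it was at 47.7 and 10.996 CPM, so replicate 1 lay between the groups. The same 2 libraries shared 2596 cell barcodes, which is 17.62% of replicate 1 and 21.97% of replicate 2, while every other pair of libraries shared 126 to 223. Of these shared barcodes, 2322 had the same cell type in both libraries. Results that rest on these 2 libraries are therefore also given without the shared barcodes or without 1 library where that changes a call or moves a value by over 1.5 times.

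Because the levels of Fabp7 and Crabp1 moved in opposite directions between the groups, their upstream sequences are shown side by side. Both come from RefSeq on build GRCm38.p6, plus strand, 5′ to 3′, and end before the first annotated transcribed base. The Fabp7 window is chr10:57784673-57784880 and the Crabp1 window is chr9:54764498-54764747. Capitals mark the letters CANNTG, the E-box that basic helix-loop-helix factors such as Atoh7 and Neurog2 bind, which reads the same pattern on both strands.
Fabp7: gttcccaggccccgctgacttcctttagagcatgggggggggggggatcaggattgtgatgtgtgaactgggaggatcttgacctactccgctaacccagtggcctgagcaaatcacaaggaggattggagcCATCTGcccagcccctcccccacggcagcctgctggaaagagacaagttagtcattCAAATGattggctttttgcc
Crabp1: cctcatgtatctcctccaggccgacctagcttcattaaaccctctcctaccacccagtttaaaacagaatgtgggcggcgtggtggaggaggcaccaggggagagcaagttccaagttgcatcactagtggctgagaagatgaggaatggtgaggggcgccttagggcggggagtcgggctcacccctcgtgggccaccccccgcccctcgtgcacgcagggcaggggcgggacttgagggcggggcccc
The Fabp7 window is cut to 208 bases because the RefSeq start lies inside the GENCODE gene, and positions are counted from the RefSeq start, beyond the end of the sequence shown. Within 250 bases before that start the Fabp7 sequence held 2 E-boxes, CATCTG at 118 bases and CAAATG at 62 bases before the start. Crabp1 held 0 and Fabp3 held 1, and 66.2% of 32851 promoters held at least 1. CATCTG, searched on both strands and itself a form of CANNTG, was in 14.4% of promoters, and AGGTCA, a binding motif of retinoid receptors, in 14.02%, Fabp7 among them with 1 match. TGGGAA, the core of the Rbpj site, had 1 match in Fabp7 and was in 21.6% of promoters, and TAATCC, the site of Otx and Crx factors, had 0 matches in the 3 members and was in 6.25%. These matches describe the letters of the windows only.

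The 5 genes lie apart in the genome (GRCm38, GENCODE vM21), each with 4 exons on the plus strand. Fabp7 is at chr10:57784881-57788450 and Crabp1 at chr9:54764748-54773110. Fabp5 at chr3:10012548-10016607 and Crabp2 at chr3:87948666-87953376 share a chromosome, and Fabp3 is at chr4:130308595-130315463.

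Fabp7 was highest in cones and lowest in progenitors in all 6 libraries. On the plain CPM scale, which divides a gene's UMIs by all UMIs of that cell type in the library, its mean level was 600 ± 210 in cones, 177 ± 57.4 in horizontal cells, 172 ± 126 in ganglion cells, 111 ± 68.7 in neurogenic cells and 12.4 ± 4.04 in progenitors (SD, n = 6). The means of horizontal and ganglion cells over all 6 libraries were close, but their order depended on the group. Ganglion cells ranked the second in the 4 Atoh7-null libraries and below neurogenic cells in both Bax null libraries. Cones exceeded progenitors 37.2 to 71.3 times within a library. The cell types were themselves made from expression, so these differences carry no test.

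In ganglion cells, on the TMM-scaled CPM scale that sets the typical gene equal between libraries, Fabp7 was at 17.6 and 17.4 in the Bax null libraries. It was at 221 and 243 in the Bax het Atoh7 null libraries and at 186 and 241 in the Bax null Atoh7 null libraries. All 4 Atoh7-null libraries lay far above both Bax null ones, by 3.61 on the log2 scale in the Atoh7 contrast and 3.73 in the combined contrast. Total count scaling gave 4.22 in both. These are the values Fabp7 was chosen for.

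**Figure D1:**
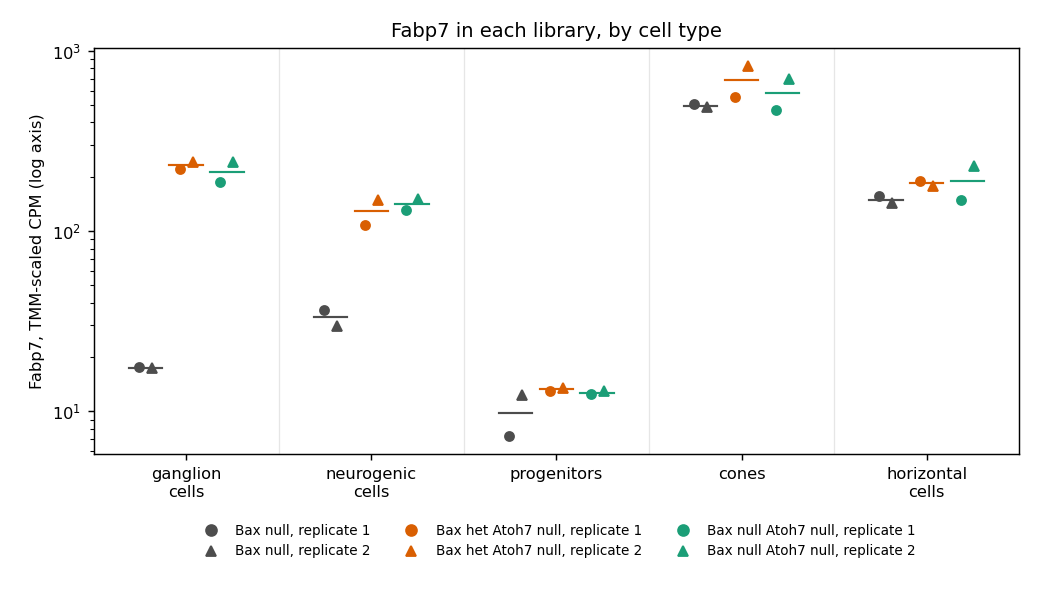
Fabp7 on the TMM-scaled CPM scale (log axis) in each of the 6 libraries by cell type. Circles are replicate 1, triangles replicate 2 and bars the mean of the 2. In ganglion and neurogenic cells the 4 Atoh7-null libraries lie above both Bax null libraries. In cones replicate 1 of Bax null Atoh7 null lies below both.

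The share of ganglion cells with a Fabp7 UMI followed the same pattern. With every cell thinned to 1000 UMIs, 22.3% (95% Wilson interval 19.3 to 25.7) and 22.8% (20.4 to 25.4) of ganglion cells had one in the Bax het Atoh7 null libraries, and 18.5% (16.3 to 21.0) and 23.5% (21.0 to 26.1) in the Bax null Atoh7 null libraries. In the Bax null libraries the shares were 1.59% (1.10 to 2.29) and 1.28% (0.833 to 1.98). Without thinning they were 40.3% to 42.6%, 32.1% to 36.2% and 6.88% to 6.94%, at median depths of 2434.5 to 2624, 1833.5 to 1954 and 5578 to 6683 UMIs. Progenitors of the same Bax null libraries, at 5869 and 6977 UMIs, had thinned shares of 0.380% and 0.581%, and progenitors of the other 4 libraries 1.18% to 1.51%. Wilson intervals cover counting error only.

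Fabp7 was uneven within the ganglion label. Of 20 ganglion clusters, 4 had a summed Fabp7 level of 200 CPM or more, at 276, 312, 319 and 403 CPM, and the next below were at 129 and 82.4 CPM; the limit was set after the values were seen. Cells of the 4 Atoh7-null libraries made up 87.9% to 96.98% of these clusters. The level was summed over all libraries, so a cluster with many Bax null cells could less easily reach the limit. The cell shares here therefore follow in part from the limit. Cluster 44, below it, was at 319 to 567 CPM in the Atoh7-null libraries, on only 10 to 25 cells and 9 to 21 Fabp7 UMIs each. It was at 47.2 and 36.0 CPM in the Bax null libraries. The 4 clusters held 61.02% and 57.8% of ganglion cells in the Bax het Atoh7 null libraries, 51.1% and 52.6% in the Bax null Atoh7 null libraries, and 4.23% and 3.69% in the Bax null libraries. They had little of the ganglion marker Sncg, gamma-synuclein, at 1.74 to 27.2 CPM. They held 519 to 1368 CPM of Hes6 and 134 to 418 CPM of Neurog2, both neurogenic markers. Hes6 was at 442 and 450 CPM in Bax null ganglion cells without a Fabp7 UMI after thinning. In ganglion cells of the Atoh7-null libraries Hes6 was at 492 to 714 CPM without a Fabp7 UMI and 787 to 1020 CPM with one. Other ganglion markers were present beside Fabp7. In the Atoh7-null libraries Isl1 was at 369 to 486 CPM in ganglion cells with a Fabp7 UMI and 450 to 603 CPM without. Gap43 was at 1052 to 1628 CPM with one and 1462 to 2077 CPM without.

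The difference between the groups was also present inside clusters. Outside the 4 clusters, Fabp7 was at 11.5 plain CPM in both Bax null libraries, 118 and 128 in the Bax het Atoh7 null libraries, and 112 and 138 in the Bax null Atoh7 null libraries. In 5 ganglion clusters with at least 20 cells from every library, all 4 Atoh7-null libraries were above both Bax null libraries in 5 of 5. Cluster 62 had 4.64 and 7.92 CPM in the Bax null libraries and 57.8 to 68.2 CPM in the others. Cluster 100 had 21.1 and 24.8 CPM against 219 to 320 CPM. Clusters were built with these genes among the rest, so these are descriptions. They are on plain CPM, and the count of clusters was not made for all genes.

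**Figure D2:**
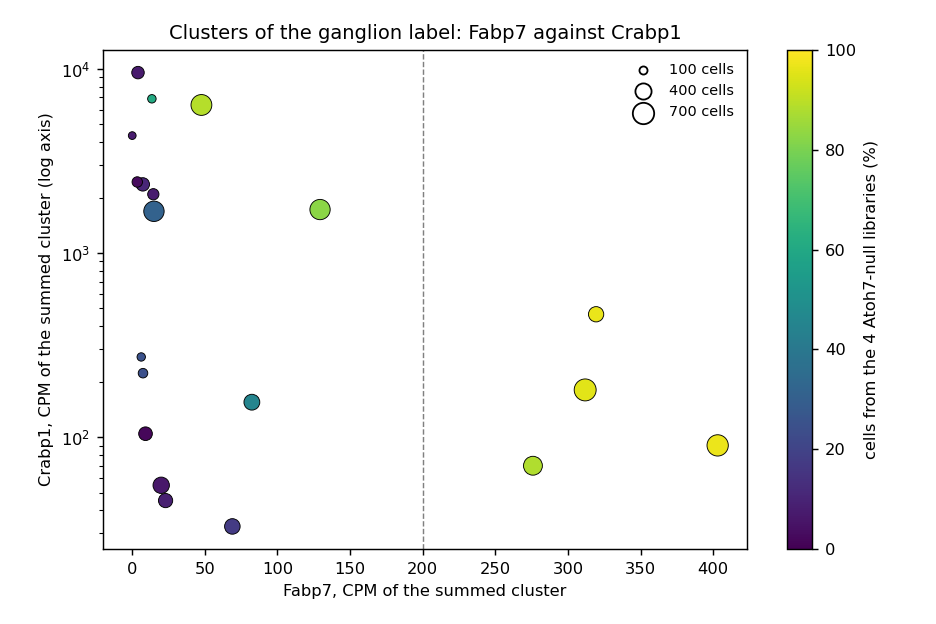
Each point is 1 of the 20 clusters of the ganglion label, with its summed Fabp7 level (CPM) across and its summed Crabp1 level (CPM, log axis) up; point area follows the number of cells, and colour the percent of cells from the 4 Atoh7-null libraries. The dashed line is 200 CPM; the 4 clusters to its right lie at 69.9 to 465 CPM of Crabp1, and the clusters above 1000 CPM of Crabp1 lie at 129 CPM of Fabp7 or less.

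Markers of other states were also counted in the ganglion label, on plain CPM. With total count scaling the median ganglion cell gene rose by 0.63 in the Atoh7 contrast and 0.50 in the combined contrast (log2). There 6440 of 10586 genes tested were called higher and 981 lower in the Atoh7 contrast. In the combined contrast 5584 were called higher and 998 lower. Of the genes called, 86.8% and 84.8% were higher. The marker values below are not corrected for that shift, and no count by non-overlapping libraries was made for all genes. Of the 13 ganglion markers, 9 lay lower in all 4 Atoh7-null libraries than in both Bax null libraries and 3 lay higher, and of the 10 neurogenic markers 8 lay higher, of the 13 progenitor markers 10, and of the 6 horizontal markers 3 with 0 lower. The summed horizontal markers were at 1275 to 1535 CPM in the Atoh7-null libraries against 524 and 531 CPM. The summed neurogenic markers were at 1759 to 2176 CPM in the Atoh7-null libraries against 1014 and 1050 CPM, and the summed progenitor markers at 2723 to 3134 against 2227 and 2384 CPM. Of 8 cone markers 5 lay higher, and their sum in ganglion cells was 75.2 to 101 CPM against 44.1 and 46.1 CPM. The neurogenic list includes Atoh7 itself, and Otx2 stands in both the neurogenic and cone lists. Opn1sw, a cone opsin, was at 0 CPM in the Bax null libraries and at most 0.710 CPM in the others. Glial markers were near 0: 4 neural crest glia markers summed to at most 7.96 CPM and 4 optic stalk and astrocyte markers to at most 4.78 CPM. The part of these markers in the Fabp7 difference was not tested.

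Neurogenic cells, the progenitors about to leave the cell cycle, gave a measure of Fabp7 that its choice did not use, though from the same libraries. Fabp7 was at 36.5 and 29.9 TMM-scaled CPM in the Bax null libraries, 107 and 149 in the Bax het Atoh7 null libraries, and 132 and 150 in the Bax null Atoh7 null libraries. The groups did not overlap. Fabp7 rose by 2.09 ± 0.16 (log2, SE) in the Atoh7 contrast, with an adjusted p of 1.14e-06 by edgeR's quasi-likelihood test, and by 1.96 ± 0.16 in the combined contrast (adjusted p 2.17e-06). Its rise was called under every alternative run. Of the neurogenic clusters, 17 had at least 20 cells from every library. On plain CPM Fabp7 was higher in all 4 Atoh7-null libraries than in both Bax null libraries in 16 of them. With total count scaling the median gene of neurogenic cells was also higher, by 0.59 and 0.51 in the 2 contrasts (log2). The count of clusters was not made for all genes. In the same cells all 4 members tested passed in both contrasts, 1 higher and 3 lower, where 47.3% of all genes tested passed in the Atoh7 contrast (23.5% higher, 23.8% lower) and 47.1% in the combined contrast (23.4% higher, 23.8% lower). With total count scaling, 7056 of 11670 genes tested in neurogenic cells were called higher in the Atoh7 contrast and 6390 in the combined contrast. The marker counts that follow stand beside that background, and no count by non-overlapping libraries was made for all genes. On plain CPM, 9 of the 10 neurogenic markers were higher in neurogenic cells of all 4 Atoh7-null libraries. Their sum was 5978 to 7229 CPM against 3149 and 3581 CPM. That list includes Atoh7 itself, which these libraries lack, and Otx2, which also stands in the cone list. In the same cells the ganglion markers summed to 802 to 974 CPM against 382 and 397 CPM, with 6 of 13 higher and 4 lower. The cone markers summed to 343 to 421 CPM against 201 and 238 CPM, with 4 of 8 higher, and the horizontal markers to 314 to 365 CPM against 151 and 183 CPM, with 4 of 6 higher. The part of these markers in the result was not tested.

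In progenitors Fabp7 was low and did not pass the test. It was at 7.31 and 12.4 TMM-scaled CPM in the Bax null libraries, 12.9 and 13.5 in the Bax het Atoh7 null libraries, and 12.5 and 12.97 in the Bax null Atoh7 null libraries. The Atoh7 contrast was 0.36 ± 0.20 (adjusted p 0.158) and the combined contrast 0.42 ± 0.20 (adjusted p 0.106) by edgeR. Bax null replicate 2 sits just below the other groups and replicate 1 well below. Without Bax null replicate 2 both were called, at 0.79 (adjusted p 0.00350) and 0.85 (adjusted p 0.00270). With the replicate number as a block the combined contrast was called at 0.45 (adjusted p 0.0372), and without the highest 8% of UMI totals both were, at 0.74 and 0.73.

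Fabp7 was highest in cones, where the Bax null Atoh7 null libraries overlapped with the Bax null libraries. Both Bax het Atoh7 null libraries lay above both Bax null libraries. On plain CPM Fabp7 was at 526 to 874 in all 4 Atoh7-null libraries against 399 and 380 in the Bax null libraries. It was at 507 and 486 TMM-scaled CPM in the Bax null libraries, 553 and 819 in the Bax het Atoh7 null libraries, and 471 and 693 in the Bax null Atoh7 null libraries. Neither contrast passed edgeR's test, at 0.22 ± 0.18 (adjusted p 0.391) and 0.47 ± 0.18 (adjusted p 0.0621). The spread within the Atoh7-null groups was as large as the difference between groups, and without Bax null Atoh7 null replicate 1 both were called, at 0.48 (adjusted p 0.00452) and 0.47 (adjusted p 0.000567). Without replicate 2 of that group the Atoh7 contrast turned to -0.07. The combined contrast was also called without Bax null Atoh7 null replicate 2, at 0.47, and without Bax het Atoh7 null replicate 1, at 0.72. It was called too with no filter on low counts (0.51), with its 4 libraries alone (0.47) and without mitochondrial and ribosomal protein genes (0.72). In horizontal cells Fabp7 was at 157 and 142 in the Bax null libraries, 191 and 177 in the Bax het Atoh7 null libraries, and 149 and 230 in the Bax null Atoh7 null libraries, and neither contrast passed (0.33, adjusted p 0.139, and 0.30, adjusted p 0.180). Without Bax null Atoh7 null replicate 1 the Atoh7 contrast there was 0.62 (adjusted p 0.00112), and without replicate 2 it was -0.01.

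The rise of Fabp7 in neurogenic cells exceeded that in progenitors of the same libraries. The difference between the cell types was 1.74 ± 0.17 on the log2 scale in the Atoh7 contrast (edgeR interaction, adjusted p 1.19e-09) and 1.54 ± 0.17 in the combined contrast (adjusted p 1.72e-08). Against progenitors, the Fabp7 changes in cones (-0.12 and 0.07) and horizontal cells (-0.02 and -0.10) did not pass. Without Bax null replicate 2 the cone difference in the Atoh7 contrast was -0.57 and was called (adjusted p 0.0245). In these fits 7.46% of all genes were called for neurogenic cells in the Atoh7 contrast (4.21% higher, 3.25% lower) and 8.35% in the combined contrast (4.22% higher, 4.13% lower). For cones the shares were 4.91% (3.05% higher, 1.85% lower) and 5.30% (3.11% higher, 2.19% lower), and for horizontal cells 3.09% (1.70% higher, 1.39% lower) and 2.65% (1.18% higher, 1.47% lower).

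**Figure D3:**
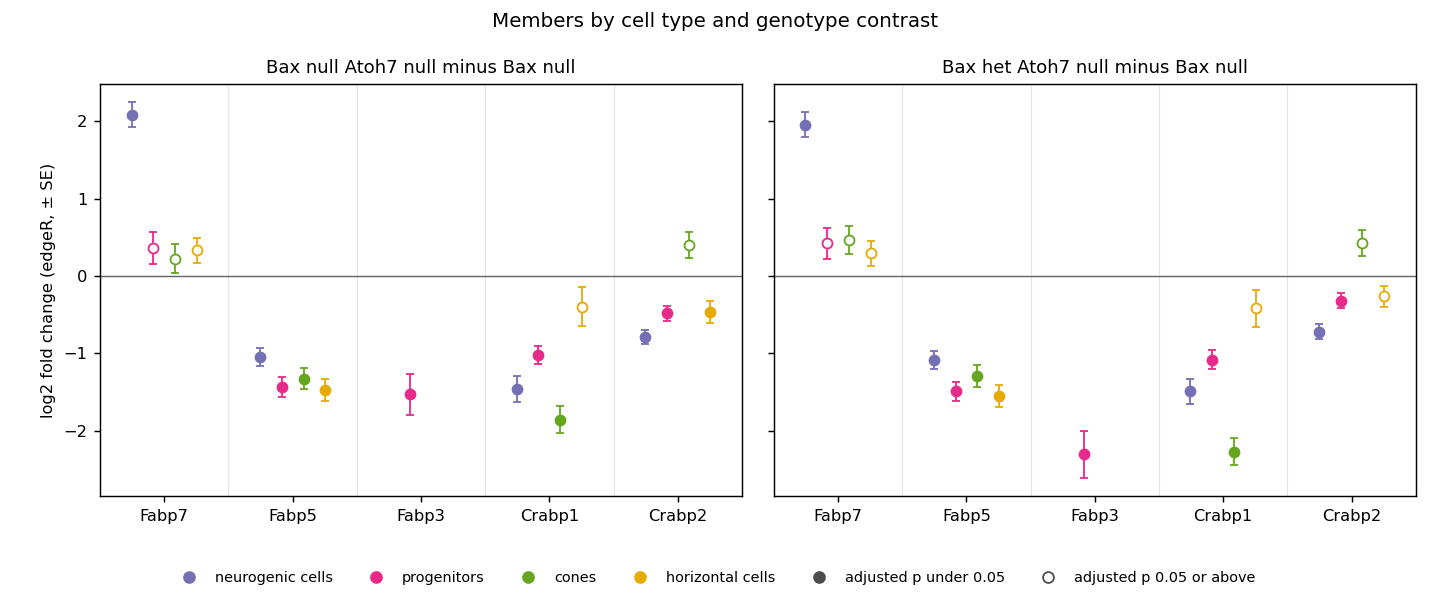
Log2 fold change ± SE (edgeR) of the 5 members in the 4 cell types that were tested, for the Atoh7 contrast on the left and the combined contrast on the right. Filled points have an adjusted p under 0.05; Fabp7 in neurogenic cells is the single filled point above 0 in each panel, at 2.09 and 1.96.

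Fabp5, the epidermal fatty acid binding protein, was lower in all 4 Atoh7-null libraries than in both Bax null libraries in every cell type. In progenitors it was at 938 and 964 TMM-scaled CPM in the Bax null libraries, 347 and 330 in the Bax het Atoh7 null libraries, and 396 and 309 in the Bax null Atoh7 null libraries. It fell by 1.43 ± 0.13 (adjusted p 2.58e-05) and by 1.49 ± 0.13 (adjusted p 2.26e-05) by edgeR in the Atoh7 and combined contrasts. In cones it was at 1241 and 1155 in the Bax null libraries, 501 and 479 in the Bax het Atoh7 null libraries, and 512 and 442 in the Bax null Atoh7 null libraries, and it fell by 1.33 and by 1.29, both called. In horizontal cells it was at 2288 and 2474 in the Bax null libraries and 795 to 893 in the other 4, and it fell by 1.47 and by 1.55, both called. No library of the Atoh7-null groups reached the level of a Bax null library. In neurogenic cells, where it was at 1340 and 1290 in the Bax null libraries and 587 to 684 in the other 4, Fabp5 fell by 1.05 ± 0.12 (adjusted p 2.67e-05) and by 1.08 ± 0.12 (adjusted p 2.44e-05). The fall was smaller in neurogenic cells than in progenitors, by 0.40 ± 0.05 (adjusted p 3.13e-08) and 0.42 ± 0.05 (adjusted p 7.62e-09). In ganglion cells, with no test, it was at 2650 and 2795 in the Bax null libraries, 936 and 951 in the Bax het Atoh7 null libraries, and 1007 and 834 in the Bax null Atoh7 null libraries, a difference of -1.56 and -1.53, or -0.96 and -1.04 with total count scaling.

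The order of Fabp5 over cell types was the same in each of the 6 libraries: ganglion cells, horizontal cells, neurogenic cells, cones, progenitors. Its mean plain CPM was 1403 ± 546, 1243 ± 498, 814 ± 162, 671 ± 211 and 505 ± 173 in that order (SD, n = 6), so neighbours overlap between libraries but keep their order within each. Ganglion cells exceeded progenitors 2.58 to 2.92 times within a library. The fall was shared by every cell type. Like every contrast with Bax null, it lay along the same split of libraries as depth and the mt-Atp6 and blood counts above. Genotype and library differences cannot be told apart there, and their part was not tested.

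**Figure D4:**
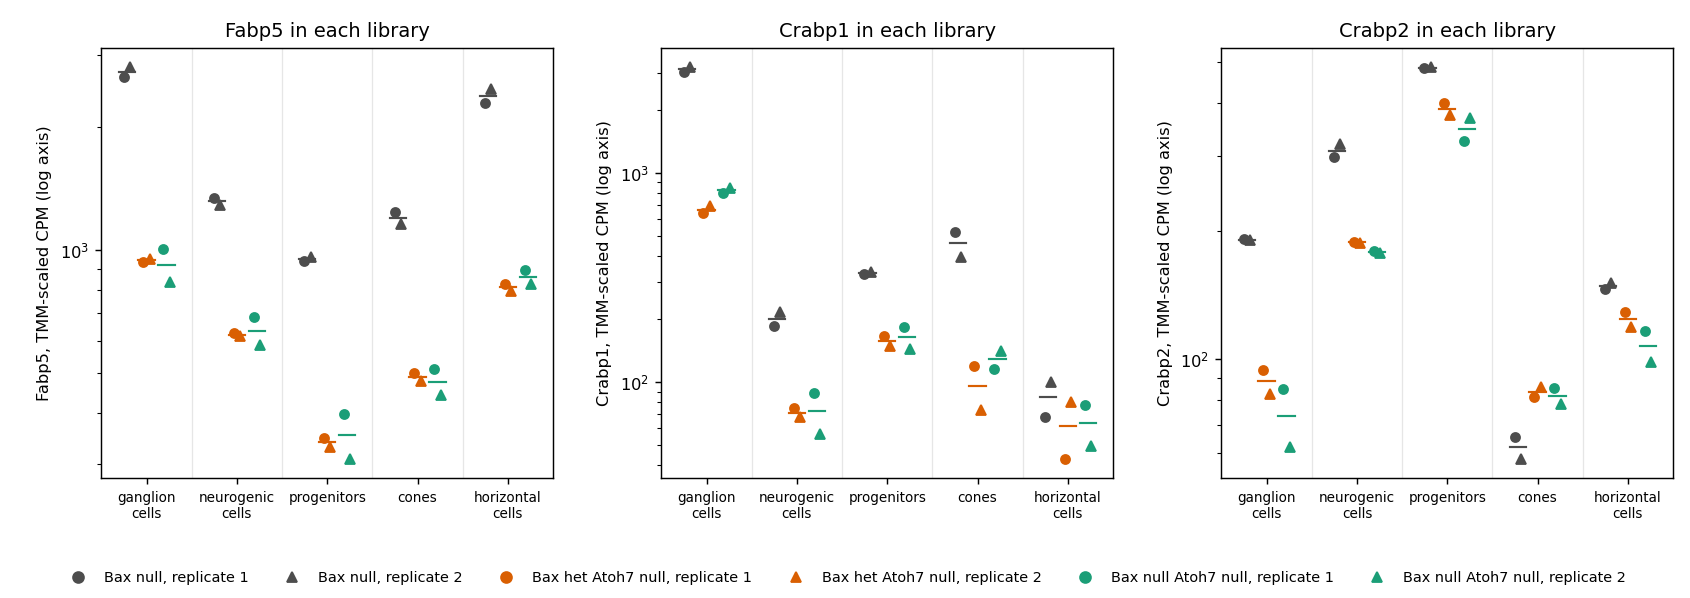
Fabp5, Crabp1 and Crabp2 on the TMM-scaled CPM scale (log axes) in each of the 6 libraries by cell type; circles are replicate 1, triangles replicate 2 and bars the mean of the 2. Fabp5 is higher in both Bax null libraries than in the other 4 in all 5 cell types, Crabp1 in all but horizontal cells, and Crabp2 in all but cones.

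Fabp3, the heart form, was scarce. Its 6 libraries held 268 UMIs in ganglion cells, 399 in progenitors, 65 in neurogenic cells, 8 in horizontal cells and 6 in cones, and its mean plain CPM was 7.36 ± 2.48 in ganglion cells and 2.21 ± 1.26 in progenitors (SD, n = 6). It had 0 UMIs in 3 horizontal cell libraries and 1 cone library. Reads of its processed copy, Fabp3-ps1, are counted as a gene of their own, so the split between the copies is uncertain. In progenitors Fabp3 was at 4.47 and 5.21 TMM-scaled CPM in the Bax null libraries, 0.967 and 0.982 in the Bax het Atoh7 null libraries, and 2.16 and 1.04 in the Bax null Atoh7 null libraries. It fell by 1.53 ± 0.27 (adjusted p 0.00119) and by 2.31 ± 0.30 (adjusted p 0.000231) by edgeR. In neurogenic cells it was at 1.67 and 1.91 plain CPM in the Bax null libraries, 0.374 and 0.509 in the Bax het Atoh7 null libraries, and 1.32 and 1.36 in the Bax null Atoh7 null libraries, on 2 to 27 UMIs each. In ganglion cells it was at 10.9 and 14.5 in the Bax null libraries and 3.95 to 6.95 in the other 4, which are description only. The difference there was -0.99 and -1.56, or -0.38 and -1.07 with total count scaling.

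Crabp1, the retinoic acid carrier of the cytoplasm, was highest in ganglion cells in all 6 libraries. Its mean plain CPM was 1368 ± 816 in ganglion cells, 207 ± 39.1 in progenitors, 204 ± 129 in cones, 106 ± 40.2 in neurogenic cells and 68.3 ± 17.4 in horizontal cells (SD, n = 6). These SDs pool the genotype groups. Cones were above progenitors in both Bax null libraries, at 1.64 and 1.22 times, and below them in the other 4, at 0.477 to 0.946 times. Ganglion cells held 9.43 and 9.58 times the progenitor level in the Bax null libraries and 3.82 to 5.78 times in the other 4. In ganglion cells it was at 3049 and 3192 TMM-scaled CPM in the Bax null libraries, 641 and 693 in the Bax het Atoh7 null libraries, and 797 and 851 in the Bax null Atoh7 null libraries. The groups lay far apart, by -1.92 and -2.22 on the log2 scale (-1.31 and -1.73 with total count scaling), with no test since these contrasts were used to choose from.

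Crabp1 was low in the 4 Fabp7-high ganglion clusters, and high in only part of the others. In those 4 clusters it was at 96.1 to 164 plain CPM in the 4 Atoh7-null libraries. The other 16 clusters, summed, were at 1438 to 1959 CPM there and 2451 and 2496 CPM in the Bax null libraries. Some of these 16 held little Crabp1. Clusters 19 and 67 were at 30.7 to 139 CPM of Crabp1 in the Bax null libraries, with 5.27 to 18.1 CPM of Fabp7. Ganglion cells were also sorted by a Fabp7 UMI after thinning to 1000 UMIs, and the unthinned UMIs of each class were summed per library. The class with a Fabp7 UMI held 119, 165, 139 and 243 CPM of Crabp1 in the 4 Atoh7-null libraries. The class without one held 854, 905, 1080 and 1257 CPM. The same cells held 24.8 to 27.8 CPM of Sncg with a Fabp7 UMI and 166 to 285 CPM without. Pou4f2, another ganglion marker, did not follow it: it was at 34.7, 58.8, 62.5 and 51.9 CPM with a Fabp7 UMI and at 34.4, 65.7, 45.9 and 55.6 CPM without. In the 5 clusters with at least 20 cells of every library, Crabp1 was lower in all 4 Atoh7-null libraries than in both Bax null libraries in 3, and the groups overlapped in 2. Cluster 62 had 15959 and 19271 CPM of Crabp1 in the Bax null libraries and 1836 to 3050 CPM in the others.

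Crabp1 was also lower in cell types that played no part in the choice. In cones it was at 524 and 398 TMM-scaled CPM in the Bax null libraries, 119 and 73.5 in the Bax het Atoh7 null libraries, and 116 and 141 in the Bax null Atoh7 null libraries. It fell by 1.86 ± 0.17 (adjusted p 7.59e-08) and by 2.27 ± 0.18 (adjusted p 6.85e-09) by edgeR. Of all genes tested in cones, 28.1% passed in the Atoh7 contrast (12.5% higher, 15.6% lower) and 27.5% in the combined contrast (12.7% higher, 14.8% lower). In neurogenic cells it was at 185 and 216 in the Bax null libraries and 56.6 to 88.3 in the other 4, a fall by 1.46 ± 0.16 and by 1.49 ± 0.16. In progenitors it was at 329 and 336 against 143 to 184, a fall by 1.02 ± 0.12 and by 1.08 ± 0.12, where 53.9% (26.8% higher, 27.1% lower) and 53.1% (26.6% higher, 26.5% lower) of all genes passed. In horizontal cells the groups overlapped, at 68.3 and 101 in the Bax null libraries and 43.0 to 80.6 in the other 4, and neither contrast passed (-0.39, adjusted p 0.252, and -0.42, adjusted p 0.207). There the Atoh7 contrast was called without Bax null Atoh7 null replicate 1, at -0.77 (adjusted p 0.0164), and the combined contrast without Bax het Atoh7 null replicate 2, at -1.001 (adjusted p 0.0366).

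The size of the Crabp1 fall differed between cell types of the same libraries. It was larger in cones than in progenitors, by -0.79 ± 0.12 (adjusted p 2.34e-07) and -1.13 ± 0.12 (adjusted p 1.01e-12), and larger in neurogenic cells than in progenitors by -0.42 ± 0.08 (adjusted p 0.000195) and -0.40 ± 0.08 (adjusted p 0.000339) by edgeR. Without Bax null Atoh7 null replicate 1 the cone difference in the Atoh7 contrast was -0.43 and missed the threshold (adjusted p 0.0504). The neurogenic differences were -0.33 and -0.30 without Bax null replicate 2, and missed it too (adjusted p 0.0565 and 0.0824). The fall was smaller in horizontal cells than in progenitors, by 0.66 ± 0.17 (adjusted p 0.00777) and 0.72 ± 0.17 (adjusted p 0.00160). With the shared barcodes left out these values were 0.24 (adjusted p 0.802) and 0.71 (adjusted p 0.113). They were also lost without Bax null replicate 1 (0.44, adjusted p 0.373, and 0.49, adjusted p 0.246), the first without Bax null Atoh7 null replicate 1 (0.49, adjusted p 0.486) and the second without replicate 2 of Bax het Atoh7 null (0.06, adjusted p 0.982).

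Crabp2, which brings retinoic acid to its receptors, had another cell type order than Crabp1: it was highest in progenitors and second in neurogenic cells in all 6 libraries. Its mean plain CPM was 403 ± 39.1 in progenitors, 218 ± 17.2 in neurogenic cells, 124 ± 9.49 in horizontal cells, 110 ± 30.5 in ganglion cells and 77.6 ± 22.6 in cones (SD, n = 6). Ganglion cells were above horizontal cells in both Bax null libraries and below them in all Atoh7-null libraries. Ganglion cells were below cones in replicate 2 of each Atoh7-null group and above cones elsewhere. Crabp2 was higher in horizontal cells than in cones in all 6 libraries. In ganglion cells it was at 191 and 190 TMM-scaled CPM in the Bax null libraries, 94.4 and 82.8 in the Bax het Atoh7 null libraries, and 84.9 and 62.2 in the Bax null Atoh7 null libraries, a difference of -1.37 and -1.11, or -0.76 and -0.62 with total count scaling. In neurogenic cells it was at 298 and 320 in the Bax null libraries, 188 and 188 in the Bax het Atoh7 null libraries, and 179 and 178 in the Bax null Atoh7 null libraries. There it fell by 0.79 ± 0.09 (adjusted p 3.57e-05) and by 0.72 ± 0.09 (adjusted p 8.39e-05) by edgeR.

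In progenitors Crabp2 was at 483 and 485 in the Bax null libraries, 399 and 375 in the Bax het Atoh7 null libraries, and 326 and 368 in the Bax null Atoh7 null libraries, a fall by 0.48 ± 0.10 (adjusted p 0.00254) and by 0.32 ± 0.10 (adjusted p 0.0191). Scaled by total count these values turned to 0.16 and 0.21, neither called. The combined contrast was not called without any 1 of its 4 libraries: replicate 1 of Bax het Atoh7 null (-0.36, adjusted p 0.0592) or 2 (-0.28, adjusted p 0.121), Bax null replicate 1 (-0.33, adjusted p 0.109) or 2 (-0.32, adjusted p 0.121). In cones the direction was the other way, at 65.7 and 58.2 in the Bax null libraries and 78.4 to 85.8 in the other 4, and the groups did not overlap. Neither cone contrast passed (0.41, adjusted p 0.0789, and 0.43, adjusted p 0.0592). The combined contrast there was called without Bax null Atoh7 null replicate 1 (0.43, adjusted p 0.0486) or replicate 2 (0.43, adjusted p 0.0473), and with its 4 libraries alone (0.43, adjusted p 0.0459). The Atoh7 contrast was called without cells under 1000 UMIs (0.51, adjusted p 0.0281). Total count scaling called both, at 0.96 (adjusted p 0.000121) and 0.88 (adjusted p 0.000298). The change in cones differed from that in progenitors by 0.98 ± 0.16 (adjusted p 1.85e-06) and 0.82 ± 0.16 (adjusted p 6.58e-05), and in neurogenic cells by -0.28 ± 0.06 (adjusted p 0.000754) and -0.38 ± 0.06 (adjusted p 4.33e-06). The neurogenic difference in the Atoh7 contrast was not called without Bax null replicate 2 (-0.24, adjusted p 0.109) or Bax null Atoh7 null replicate 2 (-0.20, adjusted p 0.0748).

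In horizontal cells Crabp2 was at 146 and 151 in the Bax null libraries and 98.4 to 129 in the other 4. It fell by 0.46 ± 0.14 in the Atoh7 contrast (adjusted p 0.0200), where 29.2% of all genes tested passed (13.5% higher, 15.7% lower), and the combined contrast was -0.26 (adjusted p 0.161), where 30.2% passed (14.4% higher, 15.8% lower). The Atoh7 value was 0.07 when scaled by total count. It was not called by DESeq2 (-0.49, adjusted p 0.162) or without Bax null replicate 1 (-0.49, adjusted p 0.0698), Bax null replicate 2 (-0.44, adjusted p 0.118) or Bax null Atoh7 null replicate 2 (-0.36, adjusted p 0.125).

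Over the 4 cell types, 12 of 17 member tests passed in the Atoh7 contrast, 1 higher and 11 lower, and 11 of 17 in the combined contrast, 1 higher and 10 lower, where 28.1% to 53.9% and 27.5% to 53.1% of all genes passed by cell type. TMM scaling placed the median gene near 0 in each contrast. Scaling by the total count instead moved that median up by 0.47 to 0.64 (log2) in the contrasts with Bax null, and raised the share of higher calls among all calls from 44.5% to 50.1% with TMM to 84.8% to 90.6%. Fabp5, Fabp3 and Crabp1 outside horizontal cells kept their direction under both scalings, and Fabp7 in neurogenic cells did so too. Crabp2 in neurogenic cells kept its sign but was no longer called, at -0.20 in both contrasts (adjusted p 0.0946 and 0.0943), and Fabp7 in progenitors, cones and horizontal cells was called as higher, at 0.74 to 0.997, as was Crabp2 in cones. The balance of higher and lower members therefore depended on the scaling.

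The Bax contrast, which compares the Atoh7-null groups with each other, called 0 of 22 member tests by edgeR and 0 by DESeq2, with 2 at an unadjusted p under 0.05. All genes tested passed at 2.34% in ganglion cells, 1.77% in neurogenic cells, 2.01% in progenitors, 1.46% in cones and 1.61% in horizontal cells. In ganglion cells Fabp7 differed by -0.12 ± 0.12 (adjusted p 0.732), an interval of 2 SE from -0.36 to 0.11. Crabp1 differed there by 0.30 ± 0.12 (adjusted p 0.277), with both Bax null Atoh7 null libraries above both Bax het Atoh7 null libraries. Without Bax null Atoh7 null replicate 1 the Crabp1 difference was called at 0.35 (adjusted p 0.0246), and without replicate 2 the Fabp7 difference in cones was called at -0.55 (adjusted p 0.00511).

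Of 23 other genes of the retinoid pathway, 17 were tested in neurogenic cells, where 2 rose and 6 fell in the Atoh7 contrast and 2 rose and 8 fell in the combined contrast, beside 47.3% and 47.1% of all genes. The median was -0.23 and -0.31 on the log2 scale against a median of all genes near 0. Among those that fell were Aldh1a1, a retinaldehyde dehydrogenase, at 153 and 183 TMM-scaled CPM in the Bax null libraries and 51.3 to 84.7 in the other 4, and Stra6, the retinol uptake receptor, by 1.63 and by 1.47. In progenitors 18 were tested, with 4 higher and 5 lower in the Atoh7 contrast and 4 higher and 6 lower in the combined contrast, beside 53.9% and 53.1% of all genes, and the median was -0.11 in both. Rarb, a retinoic acid receptor whose gene responds to retinoic acid, was among the higher, at 3.86 and 5.07 in the Bax null libraries and 7.504 to 8.59 in the other 4. Cyp26a1, which degrades retinoic acid, was at 69.7 and 74.2 in progenitors of the Bax null libraries and 62.7 to 80.4 in the other 4, and the groups overlapped.

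In ganglion cells 15 retinoid genes were tested, with 3 higher and 3 lower in the Atoh7 contrast and 2 higher and 6 lower in the combined contrast. Rxrg, a retinoid X receptor also listed as a cone marker, was at 18.5 and 20.6 in the Bax null libraries and 0.366 to 2.63 in the other 4. Cyp26a1 was at 4.16 and 3.59 in the Bax null libraries and 9.14 to 12.5 in the other 4. Of all genes tested in ganglion cells, 52.7% passed in the Atoh7 contrast (26.2% higher, 26.5% lower) and 50.0% in the combined contrast (25.0% higher, 25.0% lower). In cones 14 were tested with 1 called in the Atoh7 contrast and 3 in the combined contrast, beside 28.1% and 27.5% of all genes, and in horizontal cells 11 with 0 and 1 called, beside 29.2% and 30.2%.

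Of 30 fatty acid handling genes, 27 were tested in neurogenic cells, with 3 higher and 8 lower in the Atoh7 contrast and 3 higher and 10 lower in the combined contrast, beside 47.3% and 47.1% of all genes, and medians of -0.17 and -0.21. Among those lower was Acsl6, a long-chain acyl-CoA synthetase, by 1.90 and by 1.79 in size, and among those higher Acadvl, which starts mitochondrial oxidation of long fatty acids, by 0.66 and 0.65. In ganglion cells 24 were tested, with 3 higher and 11 lower, then 3 higher and 9 lower, beside 52.7% and 50.0% of all genes. Fasn, fatty acid synthase, fell by 1.10 and by 1.07 there. Dbi, an acyl-CoA carrier, was at 382 and 381 TMM-scaled CPM in ganglion cells of the Bax null libraries and 196 to 287 in the other 4. In progenitors 27 were tested, with 9 higher and 7 lower, then 8 higher and 7 lower, beside 53.9% and 53.1%. In cones 22 were tested with 4 and 2 called, beside 28.1% and 27.5%, and in horizontal cells 18 with 5 and 3 called, beside 29.2% and 30.2%.

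Of 16 Notch and radial glial genes, the setting in which Fabp7 is best known, 15 were tested in neurogenic cells, with 6 higher and 4 lower in the Atoh7 contrast and 7 higher and 4 lower in the combined contrast, beside 47.3% and 47.1% of all genes. Notch1, the receptor, rose by 0.62 and 0.37 and Nfia, a gliogenic factor, by 1.09 and 1.87. Hes1, a Notch effector, fell by 3.88 and by 3.48, and Slc1a3, a glutamate transporter of radial glia, fell by 1.501 and by 1.67. In ganglion cells 14 were tested, with 7 higher and 6 lower, then 5 higher and 5 lower, beside 52.7% and 50.0%. In progenitors 15 were tested, with 6 higher and 4 lower, then 7 higher and 5 lower, beside 53.9% and 53.1%, and in cones 12 with 5 called in each contrast, beside 28.1% and 27.5%. In horizontal cells 13 were tested with 8 and 6 called, beside 29.2% and 30.2%.

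Across the 30 sums of 6 libraries by 5 cell types, which share their libraries and depths, the genes most like each member in log2(CPM + 1) were found among 5917 genes with a mean of at least 20 CPM. Nearest to Fabp7 were Klc3 (Pearson r 0.97), Med27 (0.96) and Eml5 (0.96), and nearest to Fabp5 were Serf1 (0.92), Ppp1r11 (0.91) and Ppdpf (0.91). Crabp1 was nearest to Rbpms2 (0.90), S100a10 (0.87) and Akap7 (0.85), and Fabp3 to Rbpms2 (0.84), S100a10 (0.79) and Crabp1 itself (0.78). Crabp2 was nearest to Pnp (0.93), Dtx4 (0.92) and Dctpp1 (0.92). Between members, Crabp2 and Fabp7 had r of -0.82 and Fabp5 and Fabp7 0.01. These correlations describe the same 30 sums and carry no test.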

How the data were processed

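Single-cell RNA libraries of embryonic mouse retina were prepared, per the labels' protocols, as 10x 3' v2 droplet libraries and processed with Cell Ranger 1.2.1 on mm10, per the submitters' processing notes. The deposited matrix holds UMI counts per gene and cell, which the authors had not normalized: each cell's sum equalled the UMI total in the authors' cell table in all 67050 cells. Cells of the table from 2 further libraries (26078) were not used here. Cell types, clusters and any doublet removal are the authors'; no doublet caller was run.

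UMI counts were summed per library and cell type. Each cell type was fitted with edgeR 4.0.16 (R 4.3.3): TMM scaling, filterByExpr, group as the only term, quasi-likelihood test, Benjamini-Hochberg adjustment over all genes tested, and a call at an adjusted p under 0.05. Differences between a cell type and progenitors were fitted as an interaction with library as a block. SEs were derived from the quasi-likelihood F statistic. The fits were tested on simulated data. Same-numbered libraries deviated together with correlations of -0.11 to 0.31, so the numbers were not treated as pairs. Alternatives were RLE and total count scaling, DESeq2 1.42.0, no filter, a replicate block, 4 libraries only, each library left out, cells under 1000 UMIs, the highest 8% of UMI totals, mitochondrial and ribosomal genes, and, added after seeing the data, barcodes shared between the Bax null Atoh7 null libraries.

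The members, gene lists, marker lists and tests were chosen with earlier results of these data known. Genes named are the 5 members, Atoh7 and Bax, genes of the lists, and the 3 genes most correlated with each member; mt-Atp6 was named after its values were seen. Marker lists for pigment epithelium, lens, endothelium, microglia, mesenchyme, ciliary margin and amacrine cells were counted as well. Promoter windows come from RefSeq, which matched 3 of the 5 members. The result of 1 further gene list is not reported here.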

Additional observations from a re-analysis of the deposited data

Results flagged for a closer look

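The change between genotypes differed between a cell type and the progenitors of the same libraries in 15 of 24 member tests (edgeR interaction). These were 7 of 12 in the Atoh7 contrast and 8 of 12 in the combined contrast. Of all genes tested, 2.65% to 8.35% were called in these fits, by cell type and contrast. For neurogenic cells minus progenitors, the differences in the Atoh7 contrast were 1.74 for Fabp7, 0.40 for Fabp5, -0.42 for Crabp1 and -0.28 for Crabp2 (log2). In the combined contrast they were 1.54 for Fabp7, 0.42 for Fabp5, -0.40 for Crabp1 and -0.38 for Crabp2. For cones minus progenitors, they were -0.79 for Crabp1 and 0.98 for Crabp2 in the Atoh7 contrast. In the combined contrast they were 0.26 for Fabp5 (adjusted p 0.0123), -1.13 for Crabp1 and 0.82 for Crabp2. The cone value of Fabp5 was 0.20 with RLE scaling (adjusted p 0.0821), and it missed the threshold without replicate 1 of Bax het Atoh7 null (0.27, adjusted p 0.125) or 2 (0.27, adjusted p 0.0888) and without Bax null replicate 2 (0.18, adjusted p 0.472). For horizontal cells minus progenitors, Crabp1 gave 0.66 and 0.72, and both were lost without the shared barcodes, at 0.24 and 0.71.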

How the results depend on the processing

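The counts of member tests called in the contrasts with Bax null stayed within 1.5 times of the main counts (12 and 11) under every alternative, and the interaction counts (7 and 8) likewise. The count of 0 in the Bax contrast ranged from 0 to 1 with a library left out, and was 1 without Bax null Atoh7 null replicate 1 or 2. Of 1055 values recomputed for single members, 957 kept their direction and side of the threshold, as did 209 of 240 interaction values. Counts of all genes called moved by over 1.5 times in 77 of 300 recomputations and list counts in 149 of 960. With the replicate number as a block, the member counts were 12, 12 and 0, and the one call that changed was Fabp7 in progenitors in the combined contrast, at 0.45.

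Most reversals were differences near 0 in the Bax contrast. With total count scaling they were Fabp5 in ganglion cells at 0.0808 and cones at 0.0642, Crabp2 in neurogenic cells at 0.00436 and cones at 0.0717, and Fabp7 in progenitors at 0.0365. The same scaling turned Crabp2 in progenitors to 0.16 and 0.21, Crabp1 in horizontal cells to 0.14 and 0.0216, and Crabp2 in horizontal cells to 0.0693 and 0.18, in the Atoh7 and combined contrasts. With cells under 1000 UMIs left out, Fabp5 and Crabp2 in cones were 0.0209 and 0.0835, and Fabp7 and Crabp1 in horizontal cells -0.0107 and -0.000647. Without the highest 8% of UMI totals, Crabp1 in neurogenic cells was -0.00565, Fabp7 in progenitors 0.0108, and Crabp1 in horizontal cells -0.17, and 0.15 in the combined contrast. Without mitochondrial and ribosomal protein genes, Fabp7 in neurogenic cells was -0.10 and Crabp1 in horizontal cells -0.32. Without the shared barcodes, Fabp7 and Fabp5 in ganglion cells were 0.00597 and 0.000825, and Fabp7 and Crabp1 in horizontal cells -0.11 and -0.25. Against progenitors in the Atoh7 contrast, the shared barcodes turned Fabp7 in cones to 0.0271 and Crabp2 in horizontal cells to -0.13, RLE scaling turned Fabp5 in horizontal cells to -0.0535, and no filter turned Fabp7 there to 0.00664 and, in the combined contrast, Fabp5 there to 0.0134.

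The ranges of log2 values below cover every fit with 1 library left out, so each holds values of both signs. Values in the Bax contrast spanned -0.32 to 0.0516 for Fabp7 and -0.18 to 0.0931 for Fabp5 in ganglion cells. In neurogenic cells they spanned -0.0887 to 0.39 for Fabp7, -0.11 to 0.14 for Fabp5 and -0.36 to 0.31 for Crabp1. In progenitors they spanned -0.13 to 0.23 for Fabp5 and -0.13 to 0.23 for Crabp1, and in cones -0.55 to 0.0666 for Fabp7, -0.14 to 0.0636 for Fabp5 and -0.0932 to 0.0273 for Crabp2. In horizontal cells they spanned -0.30 to 0.33 for Fabp7 and -0.35 to 0.59 for Crabp1. In the Atoh7 contrast Fabp7 ranged from -0.0749 to 0.48 in cones and -0.0122 to 0.62 in horizontal cells. Against progenitors, Fabp7 in cones ranged from -0.57 to 0.26 and, in the combined contrast, from -0.38 to 0.44, and in horizontal cells from -0.521 to 0.40 and from -0.61 to 0.32. Fabp5 in horizontal cells ranged from -0.11 to 0.15 and Crabp2 from -0.15 to 0.26. The cause of these changes was not tested. With 2 libraries a group, a group left with 1 is assumed to vary like the others. Fabp3 in neurogenic cells fell below the main filter; in the alternatives that tested it, its adjusted p was 0.0456 to 0.165 in the Atoh7 contrast and 0.000158 to 0.0208 in the combined contrast.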

Other observations

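Further marker lists were summed in ganglion cells. The 5 endothelial markers, among them Fabp4, a relative of the members, summed to 23.4 to 45.5 CPM in ganglion cells of the Atoh7-null libraries and 9.17 and 9.26 CPM in the Bax null libraries. The 5 blood markers summed to 935 and 1109 CPM in ganglion cells of the Bax null libraries and 4.83 to 247 CPM in the other 4, with the higher Bax null Atoh7 null value in replicate 1. The 6 amacrine markers, of which Tfap2a and Tfap2b also stand in the horizontal list and Pax6 in the progenitor list, summed to 1011 to 1509 CPM in ganglion cells of the Atoh7-null libraries and 1307 and 1346 CPM in the Bax null libraries. Pigment epithelium, lens, microglia and mesenchyme markers each summed to at most 5.17 CPM there. Ciliary margin markers summed to 13.7 to 33.8 CPM.

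In cones, 5 clusters had at least 20 cells from every library. Fabp7 was higher in all 4 Atoh7-null libraries than in both Bax null libraries in 3 of them and overlapped in 2, and Crabp1 was lower in 3 and overlapped in 2. The summed cone clusters ranged from 192 to 925 CPM of Fabp7 and from 34.3 to 296 CPM of Crabp1. These clusters were singled out after their values were seen, and the differences were not tested. They are on plain CPM, and the count of clusters was not made for all genes. With total count scaling the median gene of cones was also higher, by 0.59 in the Atoh7 contrast and 0.48 in the combined contrast (log2).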
